A study of Mus musculus with 11 samples.

Results

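Transcripts of mouse tumour liver whose levels after 14 d of Sorafenib stood apart both from vehicle and from 83 d of Sorafenib were represented by 50 of the 26512 probes measured. Their levels after 83 d were not required to equal those of vehicle. For 6 of the 50 they differed by the test given below, which 2.88% of all probes passed. Of the 13256 probes above the median level, to which all 50 belonged, 5.68% passed it. The 50 were chosen by their own levels, on the log2(intensity + 16) scale after quantile normalization of all arrays. A probe was taken when all 4 arrays of 14 d Sorafenib lay on the same side of all 7 other arrays, and when the 14 d mean differed by at least 0.4 from both the vehicle mean and the long-term mean. This gave 24 probes that were higher and 26 that were lower at 14 d than in both other groups. Because these values chose the probes, the differences of 14 d from the other groups are given as a description. Nothing is read from tests of them.

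The samples were whole liver lysates of iAST mice, a line on the C57BL6n strain, with every sample labelled as tumour liver and with an age of 12 to 15 weeks in each label. Livers had received Sorafenib at 60 mg/kg by mouth for 14 d (4 arrays) or for 83 d (4 arrays, called long-term here), or vehicle for 14 d (3 arrays). The same age is given for 14 d and 83 d livers, so like ages at sampling cannot be taken from it. No vehicle livers of 83 d were analysed here, so that in the long-term group the duration of drug and the passage of time cannot be told apart. The labels do not say what the iAST line carries or that each array came from a separate mouse, so the p-values below cover only the spread among these arrays, part or all of which may be technical.

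Sorafenib is an oral multikinase inhibitor that blocks RAF kinases, the relays between RAS and ERK, and the receptors for VEGF and PDGF through which endothelial cells and pericytes are maintained. It is given against hepatocellular carcinoma. Whole liver RNA is dominated by hepatocytes, and a transcript of a rarer cell type can change in such RNA through the number of those cells or through the RNA in each, which cannot be told apart in these lysates. Probes are given by Illumina identifier, because gene names for these identifiers were not used here, and neither the functions of the 50 transcripts nor the markers of liver cell types can be stated. Only the 2 leading identifiers of each direction are printed. The other probes are given by their rank, which orders each direction by the lesser of its differences from vehicle and from long-term livers.

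The arrays lay on 2 chips. All long-term and all vehicle livers were on 1 of them, called the shared chip, together with 14 d replicate 4, and the remaining 14 d livers, replicates 1 to 3, were on the second chip. Positions followed the groups, at A (shared chip) and F to H (second chip) for 14 d, B to E for long-term and F to H for vehicle. For the 14 d livers the chip therefore differs from that of the other groups in 3 of 4 arrays. Array medians lay between 98.7 and 99.9 intensity units, and no array stood apart in this respect. The sorted values of the deposited arrays differed from their common mean by a median of only 0.419%, so like medians show nothing about the chips.

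The highest-ranked probe, ILMN_3150811, had intensities of 3066, 2045, 3310 and 2795 in the 14 d livers, against 1030, 894, 1551 and 980 in the long-term livers and 735, 1716 and 1245 in the vehicle livers. Its log2 levels averaged 11.45 ± 0.32 at 14 d (SD, n = 4), 10.12 ± 0.36 in long-term livers (SD, n = 4) and 10.20 ± 0.61 in vehicle livers (SD, n = 3). The 14 d level was thus 2.51-fold that of long-term and 2.38-fold that of vehicle, and the nearest of the other 7 arrays, a vehicle liver, lay 0.26 below the lowest 14 d array. ILMN_1229246, the second, had intensities of 680, 554, 1134 and 670 at 14 d, against 258, 239, 359 and 220 in long-term livers and 283, 421 and 346 in vehicle livers. Its 14 d mean exceeded long-term by 1.41 and vehicle by 1.05 on the log2 scale, with a gap of 0.39 to the nearest other array. These 2 were the only ones of the 50 that differed by at least 2-fold from both groups.

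Among the lower probes, ILMN_2645780 had intensities of 504, 717, 674 and 653 at 14 d, against 1200, 1236, 992 and 1270 in long-term livers and 2956, 1099 and 1822 in vehicle livers. The 14 d and the long-term livers were each close together, whereas the vehicle livers were spread, with a log2 SD of 0.71 (n = 3), against 0.15 for long-term (n = 4) and 0.21 for 14 d (n = 4). Its 14 d mean was lower than long-term by a log2 difference of -0.87 and than vehicle by -1.51. ILMN_2672190 had intensities of 191, 211, 181 and 193 at 14 d, against 447, 499, 209 and 290 in long-term livers and 396, 363 and 402 in vehicle livers. Long-term replicate 3 lay at the 14 d level for this probe, 0.0057 on the log2 scale above the highest 14 d array, while the other 3 long-term livers were clearly higher. The mean differences of ILMN_2672190 were -0.78 from long-term and -0.94 from vehicle. Without long-term replicate 3 the difference from long-term was -1.0. It was -0.66 without long-term replicate 1, -0.61 without replicate 2 and -0.86 without replicate 4.

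**Figure D1:**
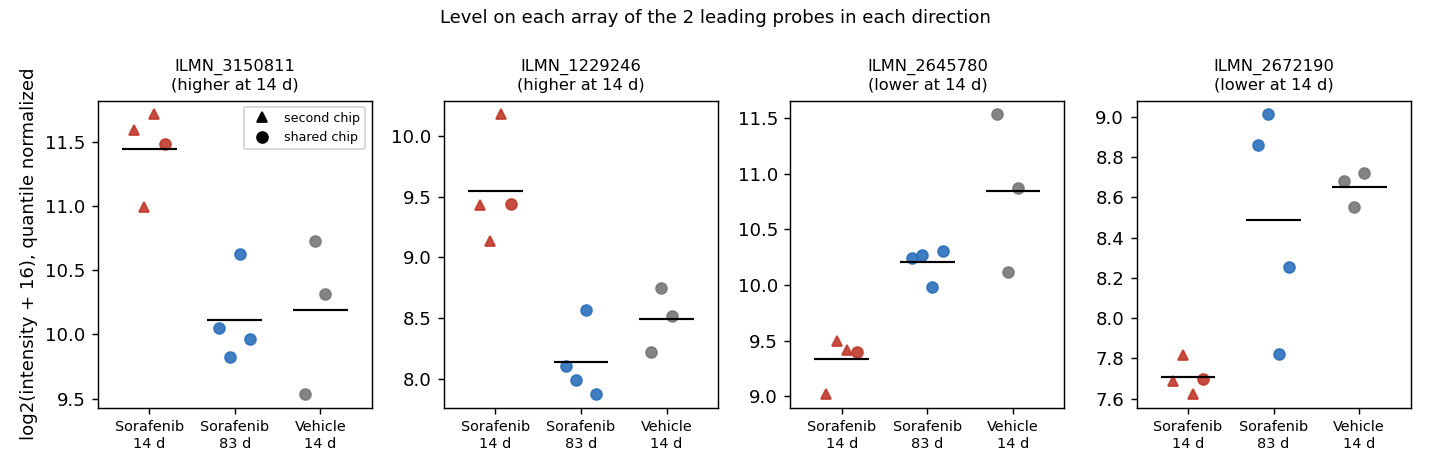
Level of the 2 leading probes in each direction on every array, as log2(intensity + 16) after quantile normalization, with a separate vertical scale for each probe. Points are arrays (triangles, second chip; circles, shared chip), lines are group means, and the circle among the 14 d points is replicate 4, which lies within the span of the other 14 d arrays for all 4 probes.

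Most of the 50 differences were moderate. For the 24 higher probes the 14 d mean exceeded vehicle by 0.40 to 1.25 and long-term by 0.45 to 1.5 on the log2 scale, with medians of 0.71 and 0.72. For the 26 lower probes the differences were -1.61 to -0.41 from vehicle and -2.18 to -0.41 from long-term, with medians of -0.67 and -0.70. At least 2-fold differences from vehicle were found for 4 higher and 4 lower probes, and from long-term for 5 higher and 3 lower. The gap between the 14 d arrays and the nearest other array was often narrow, with a median of 0.18 for the higher and 0.14 for the lower probes. It was under 0.1 for 8 higher and 10 lower probes, and wider than the span of the 14 d arrays themselves for 2 higher and 7 lower.

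The side condition alone, with all 14 d arrays above or all below the 7 others, was met by 168 probes above (0.634% of all probes) and 189 below (0.713%), so that 144 and 163 of these fell short of the 0.4 difference. Of the higher probes just inside and just outside the limit, one differed from vehicle by 0.403 and the other by 0.394. Of the lower probes near the limit, the one inside differed from long-term by -0.407 and the one outside from vehicle by -0.397. The limit thus fell in a continuous run of values, and at 0.3 in place of 0.4 there were 46 higher and 48 lower probes. The counts also changed by over 1.5 times when single arrays were left out. There were 47 higher and 73 lower probes without 14 d replicate 4, 46 higher without vehicle replicate 2, 44 lower without vehicle replicate 3 and 40 lower without long-term replicate 3.

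**Figure D2:**
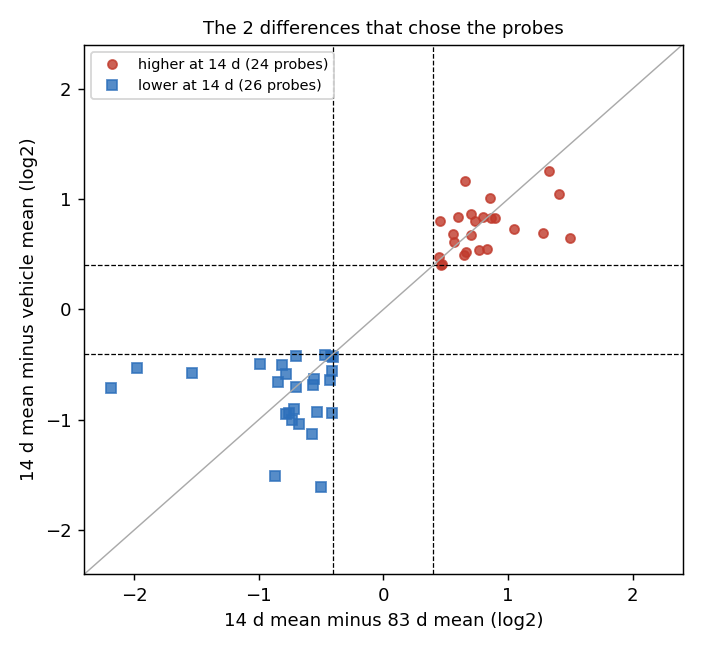
Mean log2 level at 14 d minus the long-term (83 d) mean on the horizontal axis and minus the vehicle mean on the vertical axis, for the 24 higher and 26 lower probes. Dashed lines mark 0.4, the grey line marks equal differences, and 3 lower probes lie far to the left, at -1.53 to -2.18 from long-term and -0.53 to -0.71 from vehicle.

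All 50 probes were among the 13256 brighter ones, which the choice did not ask for directly. Their mean levels over the 11 arrays were 7.28 to 12.58 with a median of 8.78, whereas the median over all probes was 6.84, and 69.4% of all probes were dimmer than the dimmest of the 50. A background remained in the deposited intensities, and the folds of dim probes are understated on this scale. The median within-group SD of the 50 was 0.18 at 14 d, 0.17 in long-term and 0.21 in vehicle livers, against 0.11, 0.10 and 0.10 for the brighter probes. The brighter probes had a lower median level, 7.61, and probes of like level were not compared.

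As the choice used both contrasts of the 14 d livers, calls in them are given only as a count. By limma with Benjamini-Hochberg adjustment over all probes, 31 of the 50 passed an adjusted p of 0.05 for 14 d against vehicle (1.17% of all probes passed), 39 for 14 d against long-term (1.43%) and 24 for both (0.155%). Neither test was passed by 4. Nothing is read from these counts.

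**Figure D3:**
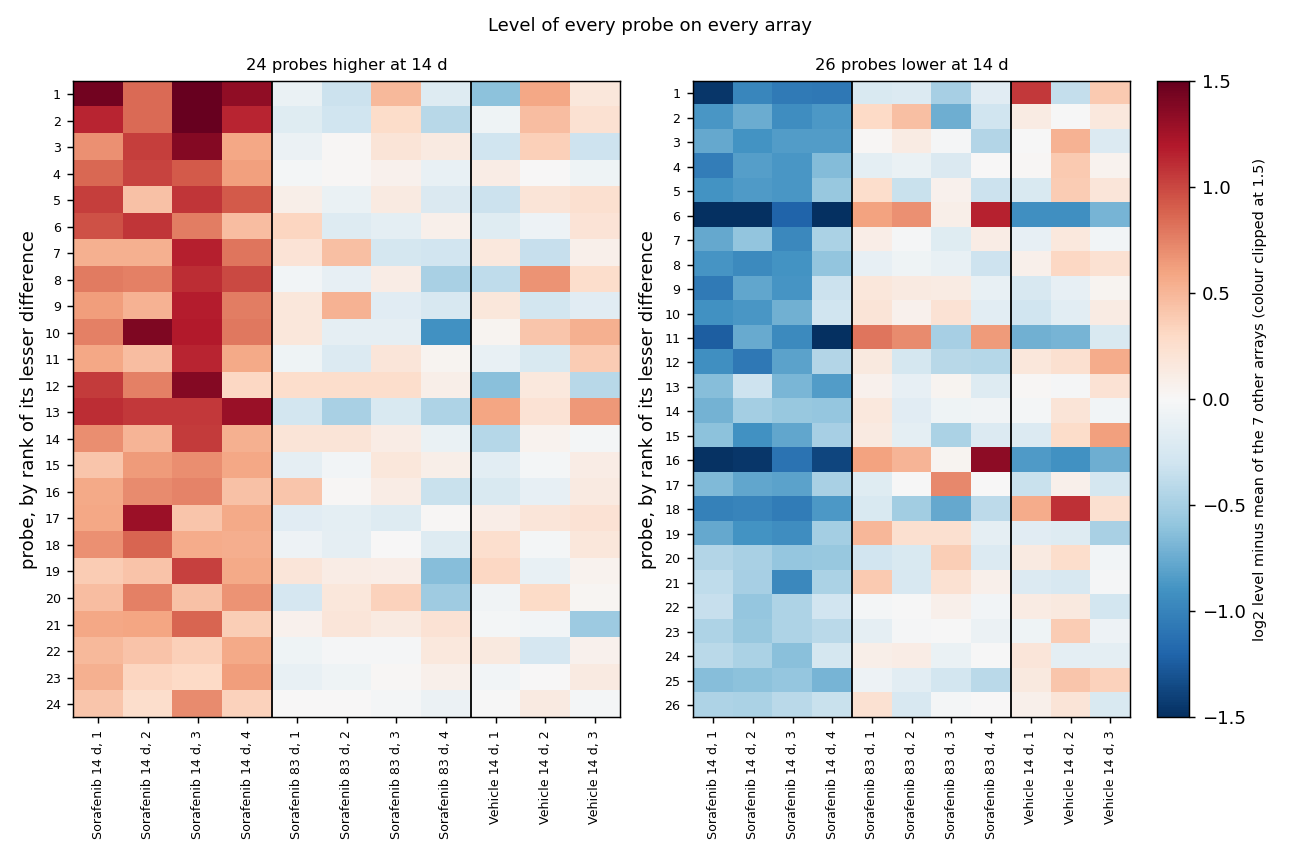
Log2 level of each of the 50 probes (rows, by rank) on each of the 11 arrays (columns, by group and replicate), minus the mean of the 7 arrays of long-term and vehicle livers. Colours are clipped at 1.5; the 14 d columns are red throughout on the left and blue throughout on the right, and the lower probes of ranks 6, 11 and 16 are red in most long-term columns and blue in the vehicle columns.

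The 14 d livers did not contribute evenly. Among the 24 higher probes, 14 d replicate 3 had the highest level for 15, replicate 2 for 6, replicate 4 for 3 and replicate 1 for none (0). The median distance above the mean of the 7 other arrays was 1.04 in replicate 3, against 0.66, 0.73 and 0.58 in replicates 1, 2 and 4. Among the 26 lower probes the lowest level was spread over the arrays, with 7, 7, 8 and 4 probes for replicates 1 to 4, and the median distances were -0.76, -0.78, -0.86 and -0.57. The other 7 arrays were 4 of long-term and 3 of vehicle livers, so a long-term liver had more chances to be the nearest to the 14 d livers. The nearest was a long-term liver for 10 higher and 16 lower probes, and a vehicle liver for 14 higher and 10 lower ones.

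Replicate 4, the 14 d liver on the shared chip, showed smaller differences than the mean of the livers on the second chip for most of the probes. Its distance from the mean of the 7 other arrays was smaller than that of the mean of replicates 1 to 3 for 35 of the 50, namely 16 of 24 higher and 19 of 26 lower probes. The median distance of replicate 4 was 0.57, against 0.78 for replicates 1 to 3, and the median share of replicate 4 in the distance of replicates 1 to 3 was 78.0% (83.5% for the higher and 76.9% for the lower probes). It ranged widely, with extremes of 29.4% and 163%, both among the higher probes, and it was under 50% for 2 higher and 3 lower probes. Without replicate 3 the median share was 88.0%. Of the 4 arrays of 14 d, replicate 4 was the nearest to the 7 others for 7 higher and 15 lower probes. On the second chip, replicate 1 was the nearest for 3 higher and 3 lower probes, replicate 2 for 10 and 5, and replicate 3 for 4 and 3. On its own, replicate 4 differed by at least 0.4 from both the vehicle and the long-term mean for 20 of the 24 higher and 14 of the 26 lower probes. In a limma model with a chip term, which sets replicates 1 to 3 against replicate 4, no member (0 of 50) passed an adjusted p of 0.05, where 0.00377% of all probes did, and 4 members had an unadjusted p under 0.05, where 6.51% of all probes did. This is no test of the chip among the members, because 1 side of it is a single array and the choice had asked replicate 4 to lie on the side of the others. The part of the chip in these differences was not tested.

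**Figure D4:**
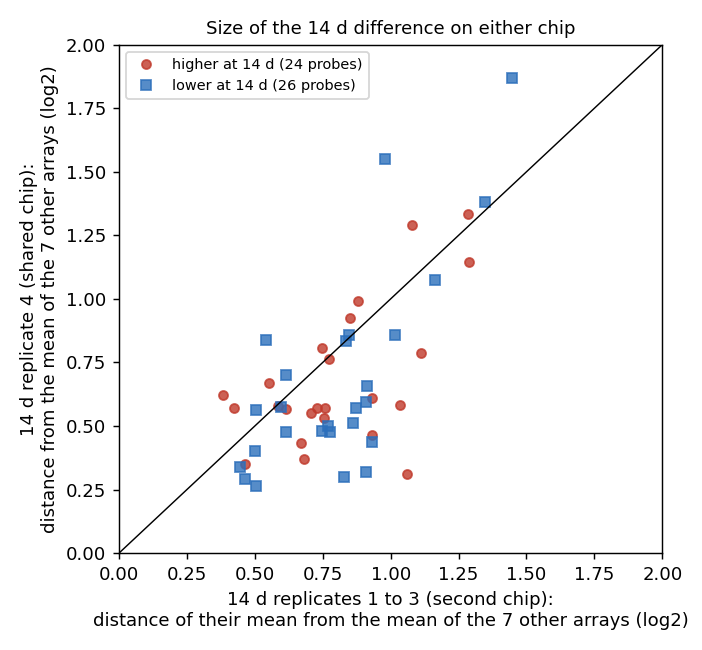
Distance of 14 d replicate 4 (shared chip, vertical) and of the mean of 14 d replicates 1 to 3 (second chip, horizontal) from the mean of the 7 other arrays, in log2 units without sign, for the 50 probes. The line marks equal distances; 35 of the 50 points lie below it.

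Replicate 4 could also be read when it took no part in the choice, though the 7 other arrays still did. The same conditions applied to replicates 1 to 3 and the 7 other arrays gave 47 higher and 73 lower probes, which included 23 and 25 of the members. Replicate 4 lay above all 7 other arrays for 27 of the 47 (57.4%), where it did so for 12.9% of all probes and 13.5% of the brighter ones. It lay below all 7 for 32 of the 73 (43.8%), against 11.8% of all and 10.8% of the brighter probes. Its median distance in the chosen direction was 0.35 and 0.25, where the replicates that chose the probes had 0.65 and 0.71. The choice made the other way, on replicate 4 with the 7 other arrays, took 123 higher and 94 lower probes. All of replicates 1 to 3 lay above the 7 others for 25 of the 123 (20.3%), against 1.72% of all and 2.56% of the brighter probes. They lay below for 17 of the 94 (18.1%), against 1.72% of all and 2.63% of the brighter probes. In both readings the same 7 arrays served the choice and the reading, so the shares are not independent of the choice. This alone raises them above the shares of all and of the brighter probes, by an amount that was not measured.

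The difference between long-term and vehicle livers was not itself used in the choice. It shows how the levels after 83 d lay against those of vehicle. The choice set no direction for it, but asked both groups to lie on the same side of the 14 d livers. A long-term mean could lie at any distance from vehicle away from 14 d, but toward 14 d it had to stop 0.4 short. The side counts, medians and calls below are therefore partly shaped by the choice. Both groups of this comparison lay wholly on the shared chip. Of the 24 higher probes, 10 had a long-term mean on the 14 d side of vehicle and 14 on the far side, with a median difference from vehicle of -0.04 and 15 differences under 0.2 in size. Of the 26 lower probes, 16 had a long-term mean on the 14 d side and 10 on the far side, with a median difference of -0.10 and 12 differences under 0.2. For the higher probes the long-term difference from vehicle was a median of -4.93% of the 14 d difference and for the lower probes 14.5%, where 0 is the vehicle level and a negative value lies beyond vehicle, away from 14 d. The levels of the long-term and the vehicle livers did not overlap for 3 higher and 8 lower probes, 11 of the 50, where 12.2% of all probes and 18.6% of the brighter ones were without overlap.

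The test between long-term and vehicle was passed by 6 of the 50 probes (limma, adjusted p under 0.05), 3 with higher and 3 with lower levels in long-term livers. Over all probes 2.88% passed, 1.58% as higher and 1.30% as lower, and of the 13256 brighter probes 5.68% passed. The 6 were 1 higher probe and 5 lower ones. An unadjusted p under 0.05 was found for 4 higher and 10 lower probes, where 13.1% of all probes and 21.3% of the brighter ones had one. For the 44 others the p does not show that the levels were equal.

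Of the 10 lower probes whose long-term mean lay above vehicle, opposite to 14 d, 3 passed the test. The nearest of the others, of rank 19, exceeded vehicle by 0.49 without overlap (limma adjusted p = 0.0573). Of all probes with a long-term mean above vehicle, 418 of 13089 passed, and of the brighter ones 412 of 6276. The probe of rank 6 had log2 levels of 7.73, 7.73, 8.09 and 7.43 at 14 d, against 9.90, 9.99, 9.38 and 10.45 in long-term livers and 8.37, 8.38 and 8.61 in vehicle livers. The groups did not overlap, and long-term exceeded vehicle by 1.48 ± 0.19 (SE) on the log2 scale, 2.78-fold, with a limma adjusted p of 9.42e-05. The probe of rank 16 showed the same layout, at 7.42, 7.45, 7.80 and 7.52 at 14 d, against 9.51, 9.41, 8.95 and 10.25 in long-term livers and 8.06, 7.99 and 8.17 in vehicle livers. Its long-term level exceeded vehicle by 1.45 ± 0.20 (SE), at a limma adjusted p of 1.57e-04. In both probes 14 d replicate 3 was the highest of its group, and long-term replicate 4 was the highest and replicate 3 the lowest of theirs.

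The probe of rank 11 was at 8.31, 8.79, 8.60 and 8.0 at 14 d, against 10.35, 10.25, 9.04 and 10.19 in long-term livers and 8.82, 8.85 and 9.32 in vehicle livers. Long-term replicate 3 lay within the span of the vehicle livers here, and the highest 14 d array was only 0.03 below the nearest vehicle liver. Long-term exceeded vehicle by 0.96 ± 0.25 (SE), at a limma adjusted p of 0.0393. This call was lost in 9 of 21 alternatives, with limma adjusted p between 3.18e-04 and 0.169 over all of them. It was lost without vehicle replicate 1 (0.169) or 2 (0.112), without 14 d replicate 1 (0.052), without long-term replicate 1 (0.132), 2 (0.135) or 4 (0.109), without the intensity trend (0.146), with the vehicle and long-term arrays alone (0.0616) and with the replicate number as a block (0.0598).

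In the 2 other lower probes with a call, the long-term livers lay between 14 d and vehicle. The probe of rank 18 had log2 levels of 9.59, 9.61, 9.56 and 9.74 at 14 d, against 10.37, 10.08, 9.83 and 10.21 in long-term livers and 11.16, 11.70 and 10.84 in vehicle livers. All groups were apart, and long-term was lower than vehicle by a log2 difference of -1.11 ± 0.18 (SE), at a limma adjusted p of 8.28e-04. This is 68.9% of its 14 d difference from vehicle, the highest such share among the lower probes, so for this probe the long-term level was nearer to 14 d than to vehicle. The probe of rank 25 was at 7.66, 7.68, 7.71 and 7.60 at 14 d, against 8.23, 8.14, 8.03 and 7.89 in long-term livers and 8.45, 8.71 and 8.64 in vehicle livers. Its long-term level differed from vehicle by -0.53 ± 0.10 (SE), at a limma adjusted p of 0.00488.

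The 1 higher probe with a call, of rank 13, was among the brightest of the 50. It had log2 levels of 12.55, 12.51, 12.51 and 12.74 at 14 d, against 11.17, 10.96, 11.21 and 10.98 in long-term livers and 12.04, 11.66 and 12.09 in vehicle livers. The groups did not overlap, and the long-term level was lower than vehicle by -0.85 ± 0.12 (SE) on the log2 scale, 0.555-fold, with a limma adjusted p of 3.73e-04. Like the lower probes of ranks 6, 11 and 16, it thus lay on opposite sides of vehicle at 14 d and after 83 d. The calls of this probe and of the lower probes of ranks 6, 16, 18 and 25 were kept in all 21 alternatives.

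**Figure D5:**
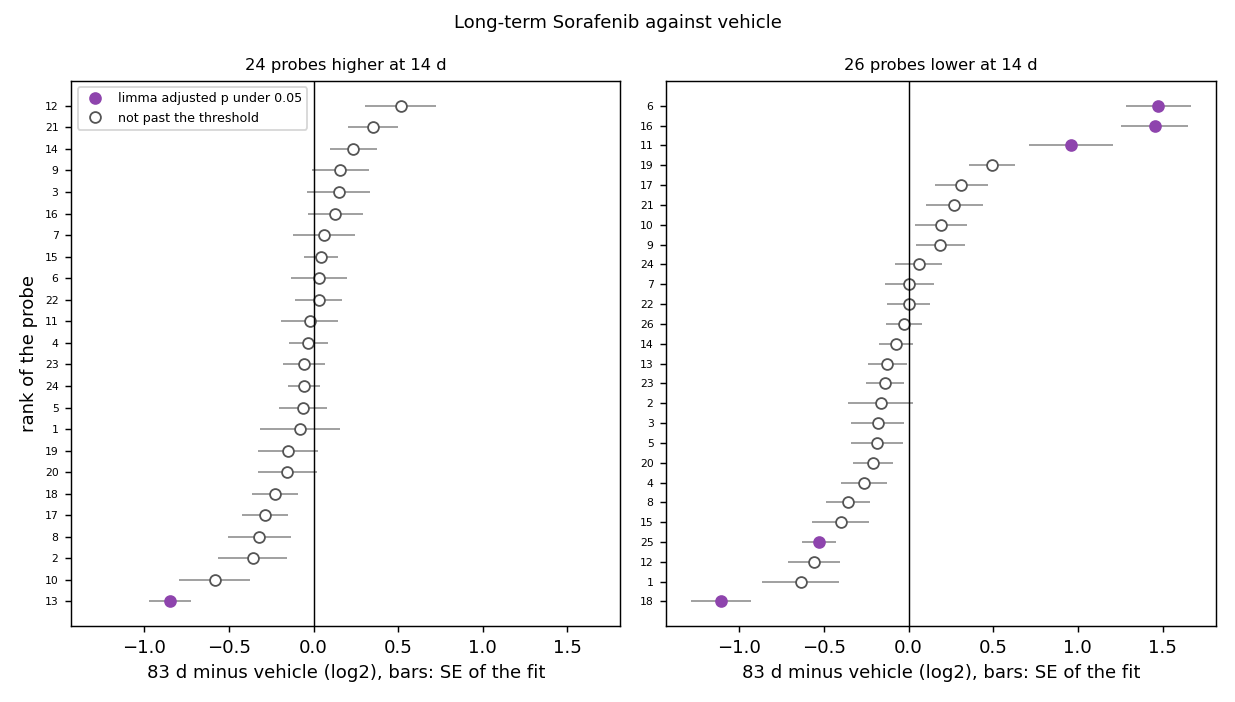
Log2 level of long-term (83 d) minus vehicle livers for each of the 50 probes, sorted by this difference, with the SE of the limma fit as bars and the rank of each probe at the left. Filled points passed an adjusted p of 0.05; they are 1 probe on the left and 5 on the right, of which 3 lie above 0.9 and 2 below -0.5.

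The leading probes did not pass this test. ILMN_3150811 differed between long-term and vehicle by -0.08 ± 0.24 (SE; limma adjusted p = 0.950), and ILMN_1229246 by -0.36 ± 0.20 (SE; adjusted p = 0.499). ILMN_2645780 differed by -0.64 ± 0.22 (SE) with an adjusted p of 0.171 by limma, and ILMN_2672190 by -0.16 ± 0.19 (SE) with an adjusted p of 0.820. ILMN_2645780 passed in 2 of the 21 alternatives, without vehicle replicate 2 (limma adjusted p = 0.00402) and with array weights (0.0498), and its adjusted p was 0.00402 to 0.677 over all of them. For ILMN_2645780 the long-term livers lay within the span of the vehicle livers or just below it.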

How the data were processed

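The deposited table held 1 intensity for each of 26512 probes on 11 arrays of biotin-labelled total RNA, per the labels. These intensities were made by the authors with steps not given in the sources used here; their values show a linear scale. With a lowest value of 74.1, a background was still in them, and the sorted values of the arrays differed from their common mean by a median of 0.419%.

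An offset of 16 was added, log2 taken and the arrays quantile normalized. The groups were fitted in limma 3.58.1 under R 4.3.3 (lmFit on 3 groups, eBayes with intensity trend, two-sided, Benjamini-Hochberg over all probes). The brighter probes are the 13256 above the median level. The fit and the choice of probes were tested on simulated data. Figures used matplotlib 3.10.9.

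The members, lists and tests were chosen with earlier results of these data known. The planned gene lists and cell type markers were not analysed here, for want of gene names; by the naming rule the first 2 probes of each direction by their lesser difference are printed, and others, by rank, were picked after their values were seen or because they passed the test between long-term and vehicle. Alternatives were other scalings, offsets and limits, the chip, the replicate number as a block, array weights and leaving out each array.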

Additional observations from a re-analysis of the deposited data

Results flagged for a closer look

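Dixon's test for a single array far from its group was applied to the 4 arrays of 14 d and to the 4 of long-term livers, for each of the 50 probes and for the median over the probes of each direction, 104 sets in all. It passed for 6, of which 2 were at 14 d and 4 in long-term livers. In sets not chosen by their values, chance alone passes about 1 in 20. The values tested here had chosen the probes, so that rate need not hold, and the 6 are given as a description. Among the higher probes, that of rank 11 was at 9.71 in 14 d replicate 3, with the other 14 d arrays at 9.03 to 9.14. The higher probe of rank 12 was at 9.91 in long-term replicate 4 and at 10.09 in each of the other 3, which is a small distance. The higher probe of rank 19 was at 7.23 in long-term replicate 4, with the others at 7.97 to 8.04.

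Among the lower probes, that of rank 5 was at 7.88 in 14 d replicate 4, the array on the shared chip, with the other 14 d arrays at 7.55 to 7.60. Long-term replicate 3 stood apart for 2 lower probes, at 9.04 for rank 11, with the others at 10.19 to 10.35, and at 7.83 for rank 20, with the others at 7.18 to 7.26.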

How the results depend on the processing

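The number of higher and lower probes was 22 to 26 and 20 to 28 without quantile normalization, with median centring and with offsets of 1 and 50, and 19 and 18 at a difference of 0.5. The deposited arrays were already nearly alike in distribution, so leaving out quantile normalization or centring on medians could change little. The counts were 46 and 48 at a difference of 0.3, and 123 and 94 on the shared chip alone, where 14 d has 1 array. Of these 123 and 94, 20 and 14 were members. Leaving out each array in turn gave 24 to 47 higher and 24 to 73 lower probes, with the levels normalized once over all arrays; fewer arrays make the side condition easier to meet. The number of members called between long-term and vehicle was 5 to 8 over all 21 alternatives, and 5 to 8 when arrays were left out. With the replicate number as a block it was 5. Beside the 6, 5 other members were called in 1 to 4 of these alternatives each. Deviations of same-numbered long-term and vehicle arrays from their group means correlated at 0.119, 0.023 and -0.079 across brighter probes, so the numbers were not taken to pair the samples. The share of replicate 4 in the distance of replicates 1 to 3 was 77.3% to 88.0% when other arrays were left out. The number of arrays limits the precision.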
